A study of Mus musculus with 6 samples.

Results

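The genes described here are 10 cyclin-dependent kinase genes of the mouse: *Cdk1*, *Cdk2*, *Cdk4*, *Cdk5*, *Cdk7*, *Cdk9*, *Cdk10*, *Cdk12*, *Cdk13* and *Cdk16*. They were chosen by name from 12134 genes with a listed intron, and not by a rule on measured values. Earlier results of these data were known when they were chosen. E14 mouse embryonic stem cells, a line of 129/Ola background grown with serum and leukaemia inhibitory factor, were transfected with a control siRNA or with an siRNA against *Son*, and RNA was taken 24 hours later. *Son* codes for a protein of nuclear speckles, where splicing factors gather. Total RNA without ribosomal RNA was sequenced from 2 samples of each group, and full-length cDNA was sequenced as Nanopore long reads from 1 control and 1 knockdown sample. Nothing in the labels says whether samples of a group came from separate cultures, so p-values measure only the spread between these samples, which may be technical. The label of the long-read control names a total RNA knockdown sample as its starting material, as does that of the long-read knockdown, so it is unclear which total RNA sample the long-read control belongs to.

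A cyclin-dependent kinase is inactive alone and works once a cyclin or a similar partner binds it. One branch of the family drives the cell cycle: Cdk4 acts with D-type cyclins in G1 phase, Cdk2 with cyclins E and A in S phase, and Cdk1 with cyclins A and B at mitosis. Another branch acts on RNA polymerase II: Cdk7 as part of the general factor TFIIH, Cdk9 in the elongation factor P-TEFb, and Cdk12 and Cdk13 with cyclin K. Cdk5 is known from neurons, Cdk10 pairs with cyclin M and Cdk16 with cyclin Y. Embryonic stem cells divide fast and have a short G1 phase.

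The introns the results turn on are shown by the exon sequence that splicing joins, 30 bases on each side of the junction, from GENCODE M21 transcripts (build GRCm38). Capitals mark the last 3 bases of the upstream exon and the first base of the downstream exon, the exon part of the splice site. The intron itself, whose sequence was not used here, would lie after the third capital. The first 2 lines belong to introns with lower splicing efficiency in the knockdown. The other two belong to the most changed introns of *Cdk5* and *Cdk9* by the rule used for naming introns.
Cdk10-201, intron 4: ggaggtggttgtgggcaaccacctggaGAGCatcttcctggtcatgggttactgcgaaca
Cdk16-202, intron 3: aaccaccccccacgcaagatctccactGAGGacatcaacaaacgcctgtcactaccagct
Cdk5-201, intron 10: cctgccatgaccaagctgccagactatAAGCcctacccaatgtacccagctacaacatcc
Cdk9-201, intron 6: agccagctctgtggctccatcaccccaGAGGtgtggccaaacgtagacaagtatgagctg

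A further sequence is the exon of *Cdk2* whose use differed between the groups. It is exon 6 of the transcript Cdk2-202, 144 coding bases (48 codons) that Cdk2-201 lacks. The exon is in capitals, between 15 bases of its neighbours, again from GENCODE M21.
Cdk2-202, exon 6: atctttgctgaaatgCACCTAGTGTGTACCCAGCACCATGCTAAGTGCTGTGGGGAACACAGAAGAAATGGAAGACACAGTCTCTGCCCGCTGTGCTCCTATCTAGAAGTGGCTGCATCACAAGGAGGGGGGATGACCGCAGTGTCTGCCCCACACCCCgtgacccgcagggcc

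In total RNA, each deposited table gives for an intron the reads that cross its 5′ and 3′ junctions split (spliced) or unsplit (unspliced), and splicing efficiency is the split share of these reads over both junctions. The libraries held 10556187 to 16012286 split reads at 5′ junctions, and the long-read libraries held 3080426 (control) and 1874851 (knockdown) reads. *Son* had 4376 and 3251 spliced reads in the controls against 1380 and 1061 in the knockdown (log2 fold change −1.61, SE 0.0869, edgeR adjusted p = 3.72e-10), and 217 and 37 long reads. Of 10 stem cell markers, 9 had listed introns; they summed to 4964 and 5050.3 CPM (spliced reads scaled to the size of the library) in the controls against 4783 and 4999.6 in the knockdown, with *Tfcp2l1* (log2 fold change 0.23, edgeR adjusted p = 0.0354, DESeq2 adjusted p = 0.0601) called higher by edgeR alone. Of 5 fibroblast markers, *Thy1* alone was listed, and *Col1a1*, *Col1a2* and *Col3a1* had 0 long reads. Of 9 markers of differentiating cells, 4 were listed, summing to 8.66 to 10.5 CPM per library, and *Gata6*, *Sox17*, *Foxa2* and *Afp* had 0 long reads. Among the markers, *Pou5f1* had lower splicing efficiency (log2 odds ratio 0.79, adjusted p = 0.00259).

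The first comparison asked which kinase genes changed in spliced reads, the split reads at 5′ junctions summed over the introns of a gene. *Cdk10*, *Cdk5*, *Cdk9* and *Cdk16* fell and none of the 10 rose. Over all 9474 genes tested, 6.76% were called with fewer and 1.96% with more (edgeR quasi-likelihood test, Benjamini-Hochberg adjusted p under 0.05). At an unadjusted p under 0.05 *Cdk4* alone was higher. Without control replicate 1 only 2 of the 4 were called, *Cdk10* and *Cdk5*, and 381 of 9488 genes in all (826 of 9474 with every library). The median log2 fold change was −0.04 over the 10 genes and 0.01 over all genes. Fewer cells of a type and less RNA per cell cannot be told apart in bulk samples.

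*Cdk10* (ENSMUSG00000033862, chromosome 8) had the largest change. It had 190 and 94 spliced reads in the controls against 30 and 27 in the knockdown, which is 12.3 and 9.08 CPM against 2.03 and 2.60. Both knockdown libraries lay far under both controls. The log2 fold change was −2.24 (SE 0.272, edgeR adjusted p = 8.36e-06), and leaving out each library in turn gave −2.42 to −1.99. These reads come from intron 4 of Cdk10-201 alone, since the other listed *Cdk10* junction held no split read at its 5′ side. The gene Gm20388 is annotated on the same strand across both listed *Cdk10* introns, and reads of the 2 genes cannot be told apart.

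*Cdk5* (ENSMUSG00000028969, chromosome 5) had 102.8 and 100.8 CPM in the controls against 66.5 and 58.5 CPM in the knockdown. The groups did not overlap, as for 24.6% of all genes in this direction, and the log2 fold change was −0.70 (SE 0.101, edgeR adjusted p = 6.73e-05). *Cdk16* (ENSMUSG00000031065, chromosome X), a kinase of the PCTAIRE group, had 283 and 255 CPM in the controls against 205 and 211 CPM in the knockdown. Its groups did not overlap either (log2 fold change −0.37, SE 0.0798, edgeR adjusted p = 0.00344), but without control replicate 1 it was not called (−0.30, adjusted p = 0.293). From the best covered intron alone, *Cdk5* (−0.53, adjusted p = 0.206) and *Cdk16* (−0.42, adjusted p = 0.0674) were not called.

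*Cdk9* (ENSMUSG00000009555, chromosome 2), the kinase that releases paused polymerase, had 39.1 and 42.5 CPM in the controls against 31.6 and 25.5 CPM in the knockdown. The 2 listed introns of *Cdk9* gave −0.50 on the log2 scale (SE 0.136, edgeR adjusted p = 0.0204). This call was the least stable of the 4. It was lost without control replicate 1, control replicate 2 or knockdown replicate 2 (adjusted p = 0.0774, 0.271 and 0.0506) and from the best covered intron (adjusted p = 0.227).

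**Figure D1:**
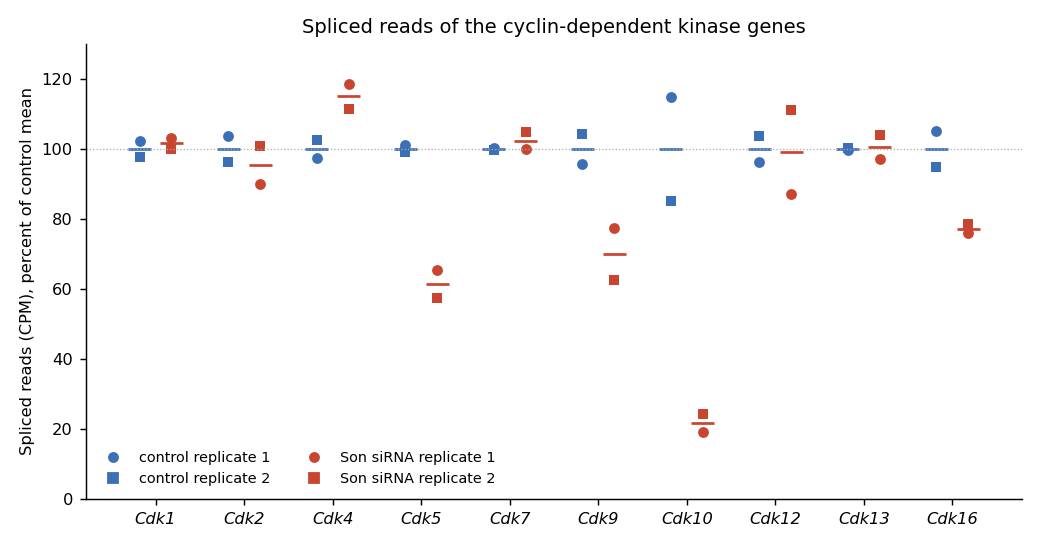
Spliced reads of each kinase gene in the 4 total RNA libraries, as CPM in percent of the control mean; points are libraries and short lines are group means. *Cdk10*, *Cdk5*, *Cdk9* and *Cdk16* lie under their controls in both knockdown libraries, *Cdk4* lies above, and the groups of the other 5 genes overlap. Over all genes tested, 24.6% lay under and 24% above their controls in this way.

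The kinases of the cell cycle and most of those acting on the polymerase had no call. *Cdk4* (ENSMUSG00000006728, chromosome 10) had 373 and 393 CPM in the controls against 454 and 428 CPM in the knockdown. Its groups did not overlap, as for 24% of all genes in this direction, and the log2 fold change of 0.20 (SE 0.0718) missed the threshold with an edgeR adjusted p of 0.0928. It was called without knockdown replicate 1 (0.16, adjusted p = 0.0257) and without knockdown replicate 2 (0.25, adjusted p = 0.000171). In these fits the lone knockdown library is assumed to vary like the controls, and calls over all genes rose from 826 of 9474 to 2193 of 9484 and 1138 of 9523.

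*Cdk1* (ENSMUSG00000019942, chromosome 10) had 171 and 163 CPM in the controls against 172 and 167 CPM in the knockdown (log2 fold change 0.02, SE 0.0820). *Cdk2* (ENSMUSG00000025358, chromosome 10) had 46.7 and 43.3 CPM against 40.5 and 45.4 CPM (−0.07, SE 0.120). *Cdk7* (ENSMUSG00000069089, chromosome 13) had 258 and 256 CPM against 257 and 269 CPM (0.03, SE 0.0753). In each of these 3 genes the groups overlapped.

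*Cdk12* (ENSMUSG00000003119, chromosome 11) and *Cdk13* (ENSMUSG00000041297, chromosome 13) are related kinases that share cyclin K. *Cdk12* had 250 and 269 CPM in the controls against 226 and 288 CPM in the knockdown (log2 fold change −0.02, SE 0.0946). The knockdown libraries lay on both sides of the controls, and without knockdown replicate 2, the fit with 1138 calls over all genes, a fall of 0.20 was called (log2 scale, adjusted p = 0.0237). *Cdk13* had 87.4 and 88.1 CPM against 85.3 and 91.2 CPM (0.01, SE 0.0958), again with overlap.

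The next comparison asked whether the share of unsplit reads changed. Over all listed introns of a gene, *Cdk10*, *Cdk5* and *Cdk16* fell in splicing efficiency, and none of the 10 genes rose, also at an unadjusted p under 0.05. Of 9370 genes tested, 6.98% were called lower and 0.128% higher (edgeR on unsplit against split reads). The median log2 odds ratio of an unsplit read was 0.11 over the 10 genes and 0.09 over all genes. Split reads enter this measure and the spliced reads, so the 2 are not independent.

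*Cdk10* had efficiencies of 0.920 and 0.854 in the controls against 0.629 and 0.605 in the knockdown. This sum holds 2 entries, and the one of 95 nt, described below, does not measure removal of its own intron. That entry gave 23 of 44 and 25 of 47 unsplit reads in the controls and 30 of 59 and 28 of 51 in the knockdown. The other entry, intron 4 of Cdk10-201, alone gave a log2 odds ratio of 2.20. The log2 odds ratio of 2.35 (SE 0.441, edgeR adjusted p = 6.3e-06) sets the odds of an unsplit read in the knockdown over those in the controls, so that values above 0 stand for lower efficiency. *Cdk5* had 0.972 and 0.966 against 0.926 and 0.927 (1.34, SE 0.282, edgeR adjusted p = 9.07e-05). *Cdk16* had 0.973 and 0.975 against 0.959 and 0.944 (0.93, SE 0.242, edgeR adjusted p = 0.00305). In all 3 genes the knockdown libraries lay under both controls. With limma none of the 3 was called (adjusted p = 0.103, 0.121 and 0.254), as none of all 9370 genes was. Without control replicate 1 none of the 3 was called either (0.0806, 0.101 and 0.160), and the calls over all genes dropped from 666 to 180 of 9224. In addition, the call of *Cdk16* was lost from the 5′ junctions alone (0.0690), without control replicate 2 (0.147) and without knockdown replicate 2 (0.218).

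*Cdk9* had efficiencies of 0.882 and 0.852 in the controls against 0.843 and 0.796 in the knockdown. The groups did not overlap, as in 27.1% of all genes in this direction, and the log2 odds ratio of 0.51 (SE 0.290) was not called (edgeR adjusted p = 0.485). For *Cdk1*, *Cdk2*, *Cdk4*, *Cdk7*, *Cdk12* and *Cdk13* the mean efficiency differed by −0.00675 (*Cdk7*) to 0.00628 (*Cdk13*) between the groups, and the groups overlapped in each. The *Cdk13* value rests largely on 2 entries of Cdk13-205, described below, that do not measure removal of their own introns. Of 333 and 250 unsplit reads in the controls, 103 and 80 lay at the 1575-nt entry and 102 and 65 at the 26684-nt entry. In the knockdown, of 240 and 285, these were 67 and 57, and 65 and 92. When split and unsplit reads were scaled separately, the median log2 odds ratio of all genes moved from 0.09 to −0.03 and that of all introns from 0.12 to −0.01. *Cdk2* (0.03 to −0.08) and *Cdk4* (0.05 to −0.08) changed sign under this scaling, while *Cdk10*, *Cdk5* and *Cdk16* were called lower under both.

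**Figure D2:**
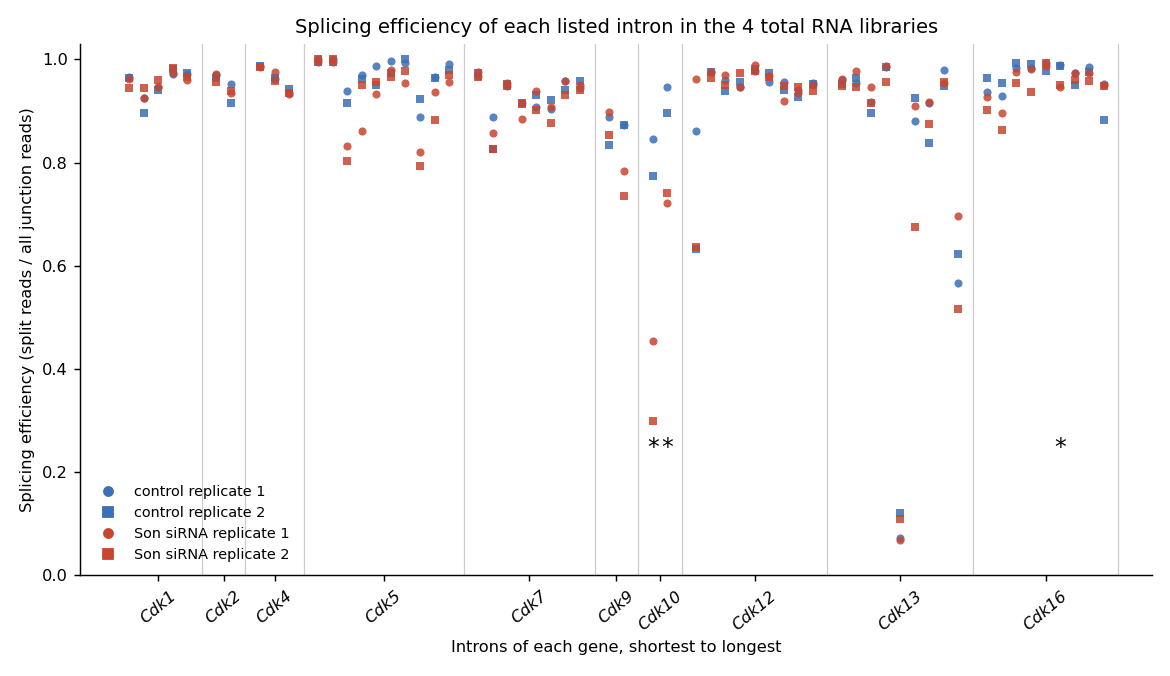
Splicing efficiency of each of the 59 introns listed in all 4 total RNA libraries, by gene and from the shortest to the longest; each point is a library, and an asterisk marks an adjusted p under 0.05. The 2 marked introns of *Cdk10* and the marked one of *Cdk16* have both knockdown libraries under both controls, and most introns of the other genes have points that lie close together.

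Single introns were then tested. The tables listed 62 introns of the 10 genes in any library and 59 in all 4, of 68322 in the series. Of the 59, 57 had enough reads for the test, and the other two, introns 2 and 3 of *Cdk5*, had efficiencies of 0.995 or more in each library. Of the 57, 3 were called lower (5.26%) and 0 higher, where 1.71% of all introns were called lower and 0.0442% higher. Without adjustment, 13 were lower and 0 higher with p under 0.05: 5 in *Cdk5*, 5 in *Cdk16*, 2 in *Cdk10* and 1 in *Cdk9*. Over all tested introns 8.11% were lower at that level. Without control replicate 1 edgeR called 0 of the kinase introns, and 171 of 60320 introns in all (1112 of 63309 with every library). With limma no intron of any gene was called. The groups did not overlap for 20 introns with lower and 1 with higher efficiency, and the 35.1% lower compare with 24.3% of all introns (13.1% higher). The median change was −0.00548 over the 57 introns and −0.00418 over all introns. Positions below are those of the deposited tables, on GRCm39 per the submitters' processing notes.

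Intron 4 of Cdk10-201 (134 nt, chromosome 8, 123954265 to 123954398, between coding exons) had efficiencies of 0.947 and 0.896 in the controls against 0.721 and 0.742 in the knockdown. The change was larger than the spread between libraries (0.922 ± 0.0360 against 0.731 ± 0.0144, SD, n = 2 each). Its 5′ junction held 190 and 94 split reads in the controls against 30 and 27 in the knockdown, beside 17 and 17 against 15 and 12 unsplit reads. At the 3′ junction 186 and 96 split reads stood against 45 and 39, and 4 and 5 unsplit reads against 14 and 11. Thus split reads were fewer on both sides of the intron, and unsplit reads were more numerous in the knockdown at the 3′ side. The log2 odds ratio was 2.20 (SE 0.550, edgeR adjusted p = 0.0110). It was not called from the 5′ junction alone (adjusted p = 0.270), with DESeq2 (0.134), with limma (0.339) or without control replicate 1 (0.572).

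The second *Cdk10* entry is intron 4 of the nonsense-mediated decay model Cdk10-203 (95 nt, chromosome 8, 123954067 to 123954161). Its efficiencies were 0.847 and 0.775 in the controls against 0.455 and 0.300 in the knockdown (log2 odds ratio 2.81, SE 0.672, edgeR adjusted p = 0.00657). No read was split at its 5′ junction in any of the 4 libraries, which held 12, 18, 17 and 19 unsplit reads there. Its 3′ junction is also the end of the 405-nt intron 3 of Cdk10-201, the transcript with the most long reads, and 127 and 86 split reads in the controls stood against 25 and 12 in the knockdown. The unsplit reads at this 3′ junction were 11 and 7 against 13 and 9. The value therefore describes that shared 3′ junction, which alone gave an adjusted p of 0.0581, and not removal of the 95-nt intron. The call was also lost with DESeq2 (0.110), with limma (0.288) and without control replicate 1, control replicate 2 or knockdown replicate 2 (0.318, 0.0550 and 0.0766).

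Intron 3 of Cdk16-202 (99 nt, chromosome X, 20560411 to 20560509) was spliced nearly completely in the controls, at 0.989 and 0.987, and at 0.947 and 0.950 in the knockdown. It held 16 and 10 unsplit reads over both junctions in the controls against 50 and 43 in the knockdown. The log2 odds ratio was 2.13 (SE 0.441, edgeR adjusted p = 0.000989), and the groups were 0.988 ± 0.00141 and 0.948 ± 0.00246 (SD, n = 2 each). It was not called from the 5′ junction alone (adjusted p = 0.159), with limma (0.305) or without control replicate 1 (0.179). Its neighbours, introns 4 and 5 (92 and 86 nt), had lower efficiencies in both knockdown libraries than in both controls but missed the threshold (edgeR adjusted p = 0.134 and 0.227). Introns 11, 14 and 15 (85, 1240 and 80 nt) also had both knockdown libraries under both controls and were not called (adjusted p = 0.625, 0.406 and 0.315). Introns 6 and 7 (763 and 94 nt) and intron 1 of Cdk16-201 (4517 nt) had overlapping groups. Differences between introns were not tested.

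In *Cdk5* no single intron was called, although the gene as a whole was. Intron 10 of Cdk5-201 (102 nt, chromosome 5, 24624679 to 24624780) had the largest change in efficiency, from 0.939 and 0.916 in the controls to 0.833 and 0.804 in the knockdown (log2 odds ratio 1.52, SE 0.524, edgeR adjusted p = 0.138). Its 5′ junction held 160 and 93 split reads against 98 and 58, and 18 and 11 unsplit reads against 26 and 24. Intron 9 (415 nt) had efficiencies of 0.888 and 0.923 against 0.820 and 0.793 (adjusted p = 0.349). Both introns had knockdown libraries under both controls, and *Cdk5*, whose summed efficiency was called, had 6 such introns of the 8 tested, where 24.3% of all tested introns were such.

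Intron 6 of Cdk9-201 (1177 nt, chromosome 2, 32598302 to 32599478), the last intron of the gene, had efficiencies of 0.874 and 0.874 in the controls against 0.784 and 0.736 in the knockdown. It held 42 and 26 unsplit reads at its 3′ junction in the controls against 70 and 46 in the knockdown. The groups did not overlap, but the log2 odds ratio of 1.11 (SE 0.399) was not called (edgeR adjusted p = 0.168). Intron 4 (98 nt), the other listed intron, had 0.889 and 0.834 against 0.897 and 0.853, with overlap.

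In the other 6 genes the most changed introns were not called. The 1679-nt intron 4 of Cdk13-207 had 0.880 and 0.925 in the controls against 0.910 and 0.674 in the knockdown, so its mean difference rested on knockdown replicate 2 alone. The named introns of *Cdk1* (605 nt, intron 1 of Cdk1-207), *Cdk2* (261 nt, intron 6 of Cdk2-201), *Cdk4* (692 nt, intron 7 of Cdk4-201), *Cdk7* (1828 nt, intron 10 of Cdk7-201) and *Cdk12* (5619 nt, intron 8 of Cdk12-203) had log2 odds ratios of −0.48, 0.15, 0.11, 0.30 and 0.37 (edgeR adjusted p from 0.842 to 0.979). Of these the *Cdk1* intron was higher in both knockdown libraries than in both controls, and the groups of the other 4 overlapped. Over all libraries the *Cdk1* entry held 36 split reads at its own 5′ junction. It held 2395 at the 3′ junction it shares with Cdk1-201, so its value describes mainly that junction. The sign of the *Cdk4* value turned when split and unsplit reads were scaled separately (−0.02).

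The introns of the kinase genes differed in length. *Cdk5*, *Cdk9*, *Cdk10* and *Cdk16*, the genes with fewer spliced reads, had 21 tested introns with a median length of 137 nt, and 14 of them were under 200 nt. The 14 include the *Cdk10* entry of 95 nt, whose value describes the end of a 405-nt intron. The other 6 genes had 36 tested introns with a median of 1416 nt, 4 of them under 200 nt. All tested introns had a median of 1128 nt. The GC content of up to 100 exon bases on each side had a median of 54.0% in the former and 47.3% in the latter. These 2 sets were made from the result, so their values are a description.

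Within the 4 genes, introns under 200 nt had a median change in efficiency of −0.0330, the 95-nt *Cdk10* entry included. The 7 longer introns had a median change of −0.0222. In the other 6 genes the 4 short introns had a median change of −0.00223, with a range of −0.0110 to 0.00392, and the 32 longer ones 0.000672. Over all tested introns the medians were −0.0174 under 200 nt and −0.00260 above. The short introns of *Cdk1*, *Cdk4* and *Cdk13* thus changed little in mean efficiency. The 92-nt intron of *Cdk1* and the 114-nt intron of *Cdk4*, at means of 0.965 and 0.988 in the controls, had both knockdown libraries under both controls. So had 24.3% of all tested introns. Their log2 odds ratios of 0.38 and 0.28 were not called (edgeR adjusted p = 0.911 and 0.916). The 152-nt intron of *Cdk4* (−0.21) and the 96-nt intron of *Cdk13* (0.05) had overlapping groups.

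**Figure D3:**
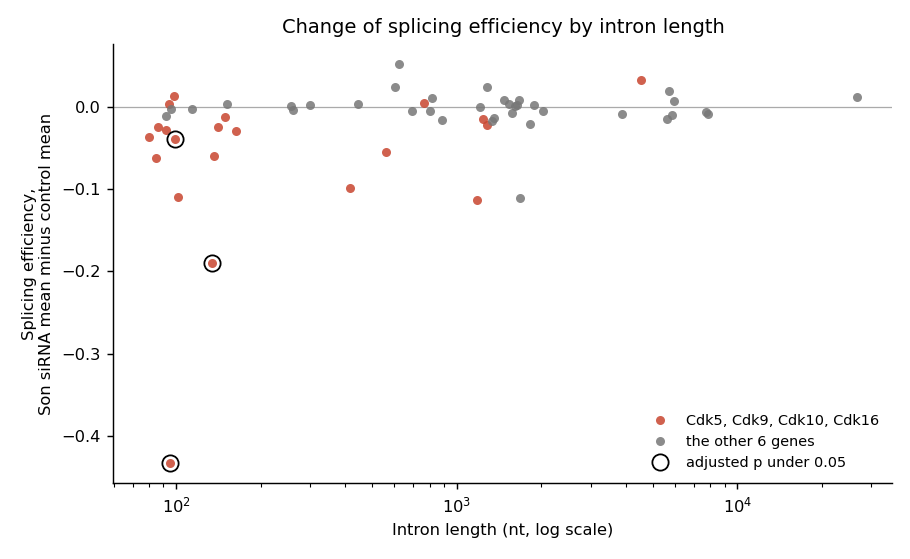
Change in splicing efficiency (knockdown mean minus control mean) of the 57 tested introns against intron length on a log axis; red points belong to *Cdk5*, *Cdk9*, *Cdk10* and *Cdk16*, grey points to the other 6 genes, and circles mark an adjusted p under 0.05. The red points lie mostly at short lengths and under 0, down to −0.433 for the *Cdk10* entry of 95 nt. The value of that entry describes the 3′ junction of a 405-nt intron.

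*Cdk2* showed a difference that splicing efficiency does not measure. The 300-nt intron 6 of Cdk2-202 (chromosome 10, 128535545 to 128535844) starts at the end of exon 6 and ends where the exon-skipping intron 5 of Cdk2-201 (1667 nt) also ends. Split reads at its 5′ junction therefore come from RNA with the exon, and split reads at its 3′ junction from RNA with or without it. Reads with the exon were 161 of 550 and 93 of 376 in the controls and 71 of 533 and 44 of 440 in the knockdown. These shares are 29.3% and 24.7% against 13.3% and 10% (95% Wilson intervals 25.6 to 33.2, 20.6 to 29.3, 10.7 to 16.5 and 7.53 to 13.2; intervals cover counting error only).

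Both knockdown libraries lay under both controls, at 11.7% ± 2.35 against 27.0% ± 3.21 (SD, n = 2 each), a difference of −15.3 percentage points. An exact two-sided permutation test gave p = 0.333, the smallest that 2 against 2 libraries allow. Leaving out each library in turn gave −17.6 to −13.1. The measure was chosen after the values were seen. The next intron, 261 nt long and common to both transcripts, held 561 and 355 split reads at its 5′ junction in the controls against 527 and 428 in the knockdown, and its efficiency did not separate the groups (0.971 and 0.965 against 0.971 and 0.956).

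In the long reads, Cdk2-202 had 56 reads in the control library against 16 in the knockdown library, and Cdk2-201 had 95 and 90. The share of Cdk2-202 among the 2 transcripts was 37.1% (95% Wilson interval 29.8 to 45.0) and 15.1% (9.51 to 23.1). Cdk2-204, a retained-intron model that also skips the exon, had 17 and 14 reads and is not in these shares. The lower share in the knockdown is in the same direction as in total RNA, in 1 library per group. As a gene, *Cdk2* had 57.1 CPM (interval 49.3 to 66.2) in the control library against 66.7 CPM (56.0 to 79.4) in the knockdown library.

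**Figure D4:**
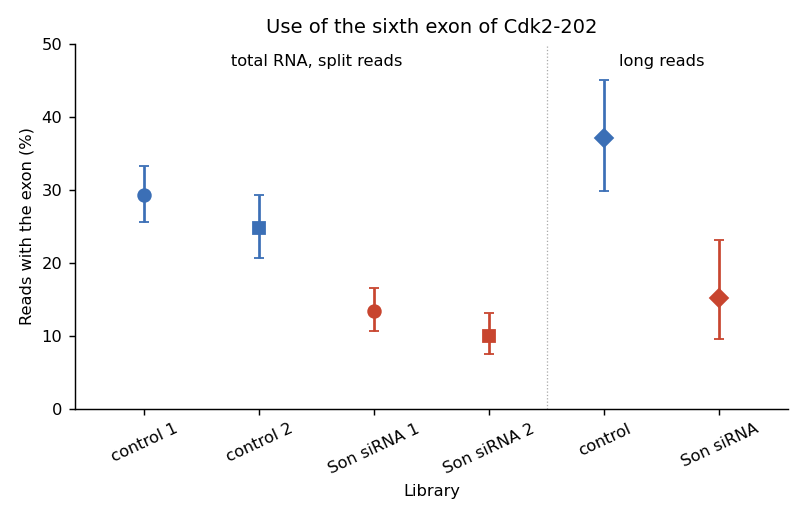
Share of *Cdk2* reads with exon 6 of Cdk2-202 in each library, with 95% Wilson intervals: split reads in total RNA on the left, and long reads of Cdk2-202 among those of Cdk2-202 and Cdk2-201 on the right. Knockdown libraries (red) lie at 13.3%, 10% and 15.1%, and control libraries (blue) at 29.3%, 24.7% and 37.1%.

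*Cdk1* and *Cdk13* also had listed introns that share one junction with another annotated intron. Split reads from the alternative first exon of Cdk1-207 numbered 4 of 744 and 5 of 421 reads at the 3′ junction it shares with Cdk1-201 in the controls, and 13 of 674 and 14 of 556 after knockdown. These shares were 0.538% and 1.19% against 1.93% and 2.52%, so both knockdown libraries lay above both controls, on few reads. Most pairs of 95% Wilson intervals overlapped (for instance 0.508 to 2.75 in control replicate 2, 1.13 to 3.27 in knockdown replicate 1). Those of control replicate 1 (0.209 to 1.37) and knockdown replicate 2 (1.51 to 4.18) did not. The alternative first exon was looked at after the values were seen, and its share was not tested. Intron 12 of Cdk13-201 shares its 5′ junction with intron 12 of Cdk13-207, and reads at its own 3′ junction came to 77 per 192 and 36 per 118 at the shared one in the controls and 73 per 159 and 61 per 168 after knockdown. The groups overlapped. The 1575-nt intron 1 of Cdk13-205 had efficiencies of 0.072 and 0.121 in the controls against 0.069 and 0.109 in the knockdown. This entry lies inside the 30480-nt intron 1 of Cdk13-207, so unspliced RNA of that transcript also counts as unsplit here. Cdk13-205 had 1 and 2 long reads in the control and knockdown libraries against 16 and 17 of Cdk13-207. The values therefore do not measure retention of the 1575-nt intron. The 26684-nt intron 2 of Cdk13-205 held 4 split reads at its 5′ junction over all libraries. It held 483 at the 3′ junction it shares with intron 1 of Cdk13-207, so its value does not measure its own removal either.

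Long reads count polyadenylated molecules by transcript, and the comparison asked which transcripts differed. With 1 library per group there is no replicate check, and sizes are given with counting error only. The 10 genes had 73 transcripts in the tables, 51 with at least 1 read and 17 with at least 20 reads over both libraries. Of the 17, 3 were lower by 2-fold or more in the knockdown library and 0 higher by as much, with 5.8% and 3.32% of 13807 transcripts past that fold. Ratios are of CPM (reads scaled to the library total) with 0.5 reads added to each count.

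Cdk10-201, the main protein-coding transcript, had 37 reads in the control library against 7 in the knockdown library. This is 12.0 CPM (95% Wilson interval 8.71 to 16.6) against 3.73 CPM (1.81 to 7.71), a log2 ratio of −1.61. Cdk9-201, which codes for the P-TEFb kinase, had 57 and 16 reads, 18.5 CPM (14.3 to 24.0) against 8.53 CPM (5.25 to 13.9), with a log2 ratio of −1.08. Cdk2-202, described above, had a log2 ratio of −1.06. With a pseudocount of 5 reads, Cdk10-201 alone stayed past 2-fold (−1.09).

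*Cdk9* had a second transcript that did not follow the first. Cdk9-204, classed by GENCODE as a retained intron, had 37 reads in the control library against 30 in the knockdown library, 12.0 CPM (8.71 to 16.6) against 16.0 CPM (11.2 to 22.8). Its first exon begins inside intron 2 of Cdk9-201 and includes 480 of that intron's 1463 nt. It shares 4 of the 6 introns of Cdk9-201, and its last exon has 2506 nt against 852. The share of *Cdk9* reads on retained-intron models was 37.4% (28.5 to 47.2) in the control library against 62.5% (48.4 to 74.8) in the knockdown library. The intervals of the 2 shares did not overlap, and how often such intervals separate over all genes was not counted.

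In the other 9 genes the retained-intron share was 15.2% or less in both libraries, and the intervals of the 2 libraries overlapped in each. *Cdk10* had 3 of 49 and 1 of 15 reads on such models. For *Cdk5*, whose unsplit share rose in total RNA, 0 of 54 and 0 of 22 reads lay on one. Nor does any annotated exon of the 10 genes span a listed intron in full, so reads that keep one of these introns had no model of their own in the tables. Introns that an annotated model keeps in full are thus absent from the efficiency values above. *Cdk4*, for one, had 3 listed introns, where Cdk4-201 has 7.

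**Figure D5:**
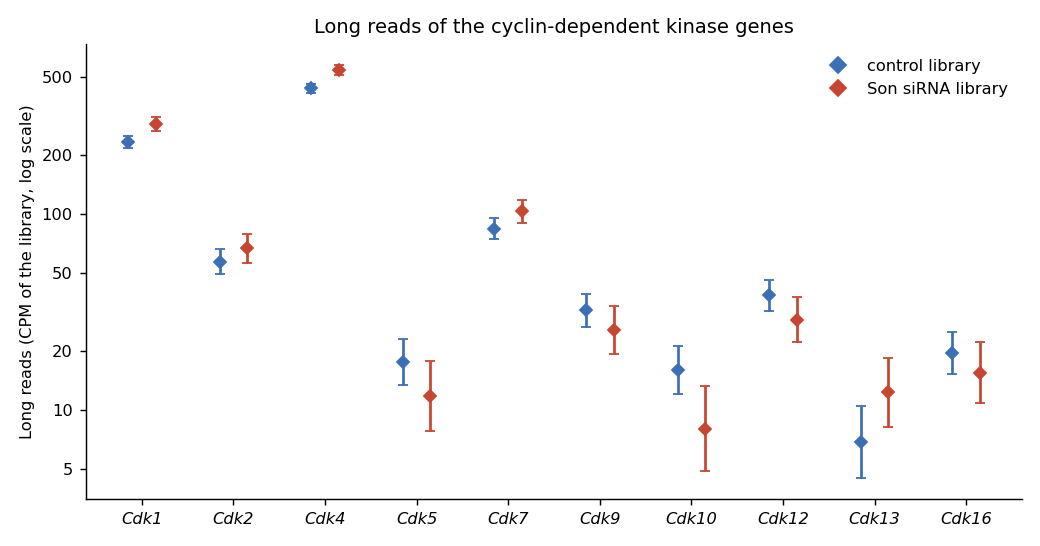
Long reads of each kinase gene summed over its transcripts, as CPM of the library on a log axis with 95% Wilson intervals, 1 library per group. *Cdk10*, with 49 and 15 reads, has the lowest ratio, and *Cdk1* and *Cdk4* are higher in the knockdown library with intervals that do not overlap. How many of all genes have such intervals was not counted.

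Summed over transcripts, none of the 10 genes was 2-fold lower or higher in the long reads, where 4.16% and 2.2% of genes were. *Cdk10* had 49 and 15 reads (log2 ratio −0.96), *Cdk5* 54 and 22 (−0.56), *Cdk9* 99 and 48 (−0.32) and *Cdk16* 60 and 29 (−0.32). All 4 genes with fewer spliced reads in total RNA thus had lower CPM in the knockdown library, although the intervals of the libraries overlapped for each. *Cdk12*, not called in total RNA, had 118 and 54 reads (−0.40), also with overlap. In all, 5 of the 10 genes had a log2 ratio under 0. The median ratio was −0.05 over the 10 and −0.01 over all genes with at least 20 long reads.

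*Cdk4* and *Cdk1* were higher in the knockdown library. *Cdk4* had 1355 and 1022 reads, 439.9 CPM (417 to 464) against 545 CPM (513 to 580), and *Cdk1* 717 and 540 reads, 233 CPM (216 to 250.4) against 288 CPM (265 to 313). For these 2 genes the intervals did not overlap (log2 ratios 0.31 and 0.31), while in total RNA neither was called (log2 fold change of spliced reads 0.20 and 0.02). The share of all genes with separate intervals was not counted. The ratios were 0.29 for *Cdk7* (259 and 193 reads), 0.22 for *Cdk2* and 0.84 for *Cdk13*, the last from 21 and 23 reads. The most abundant transcripts followed their genes: Cdk4-201 (1250 and 945 reads), Cdk1-201 (706 and 538), Cdk7-201 (237 and 176), Cdk5-201 (53 and 22), Cdk12-203 (65 and 27), Cdk13-207 (16 and 17) and Cdk16-202 (33 and 16).

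The partners, regulators and substrates of these kinases were taken from lists. Of 21 cyclins and other partners, 16 had listed introns, among them those of the main cyclins, and none was called in splicing efficiency (16 tested) or in spliced reads (15 tested). None reached an unadjusted p under 0.05 with edgeR or DESeq2 either, nor with limma in efficiency. Their median log2 fold change was 0.03. *Cdk5r1* and *Ccnq*, which code for partners of Cdk5 and Cdk10, were not listed.

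Of 22 inhibitors and regulators, 18 were listed. *Cdc25b*, *Cdkn1c* and *Cdc25c* fell in splicing efficiency (3 of 17 tested, 0 rose), and *Cdc25b*, *Cdkn1c* and *Pkmyt1* fell in spliced reads (3 of 18, 0 rose), beside the 6.98% and 6.76% of all genes given above. *Cdc25b*, a phosphatase that activates Cdk1, had an efficiency of 0.943 ± 0.000672 in the controls against 0.783 ± 0.0256 in the knockdown and a fold change of −0.85 on the log2 scale (edgeR adjusted p = 4.28e-09 and 0.000418). *Cdkn1c*, the inhibitor p57, had 0.876 ± 0.0122 against 0.548 ± 0.0262 in its 1 listed intron and its fold change was −0.78 on the log2 scale (edgeR adjusted p = 4.03e-06 and 0.0144). *Cdc25c* had an efficiency of 0.877 ± 0.00681 against 0.774 ± 0.0100 (adjusted p = 0.00389), and its spliced reads were not called (log2 fold change −0.05). *Pkmyt1*, a kinase that inhibits Cdk1, changed by −0.47 on the log2 scale (edgeR adjusted p = 0.0359) and was not called by DESeq2 (0.0720). SDs are over n = 2 libraries.

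Of 18 substrates, all listed, *Supt5* and *E2f4* fell in efficiency, and *Supt5* (log2 fold change −0.23, edgeR adjusted p = 0.0280), *E2f4* (−0.31, 0.00483) and *E2f1* (−0.35, 0.0391) fell in spliced reads. None was called higher, and the call of *E2f1* was lost with DESeq2 (adjusted p = 0.0665). At an unadjusted p under 0.05 with edgeR, 4 substrates were higher and 3 lower in spliced reads. In efficiency 0 were higher and 2 lower at that level. *Supt5* codes for an elongation factor that Cdk9 phosphorylates, and its efficiency was 0.959 ± 0.00560 in the controls against 0.934 ± 0.00644 in the knockdown (SD, n = 2 each). Of 10 long DNA repair genes linked to Cdk12, *Fanci* (log2 fold change −0.29, adjusted p = 0.00830) and *Fancd2* (−0.25, 0.0297) fell in spliced reads, and *Fanci* in efficiency. The call of *Fancd2* was lost with DESeq2 (adjusted p = 0.0527). With limma none of the list genes was called in efficiency, as none of all genes was. The median log2 fold change of the 10 was 0.01.

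Of 15 other genes of the kinase family, 9 were listed and none was called in either measure by edgeR or DESeq2. At an unadjusted p under 0.05 with edgeR, 0 were so in efficiency, and 1 was higher and 1 lower in spliced reads. Their median log2 fold change was 0.04.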

How the data were processed

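Total RNA was analysed from 2 control and 2 *Son* knockdown samples, and long reads from 1 of each, grouped by the treatment in the labels. For every intron the authors deposited read counts, split or unsplit, at the 5′ and the 3′ junction, produced by SPLICE-q according to the labels, with a splicing efficiency as a fraction, which equals the split share of these counts when checked. Each junction in the tables holds 10 reads or more. The deposited long-read tables hold raw counts per transcript, per the labels. The submitters' processing notes name GRCm39, SAMtools and minimap2, without versions; whether counting used strand is not given in the sources used here, and no gene on the opposite strand overlaps a listed kinase intron. GENCODE M21 (GRCm38) supplied names, exon sequences and transcript classes by identifier, and intron lengths were the same there in 99.78% of introns compared. Its exon and gene positions served to find overlapping genes, shared junctions and the exons that differ between transcripts. The positions printed here were not taken from it.

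Introns repeated for several transcripts were reduced to 1 entry. edgeR 4.0.16 in R 4.3.3 tested unsplit against split reads by knockdown, with a term per library and Benjamini-Hochberg adjustment over all introns or genes, for introns with at least 10 split and 10 unsplit reads. Spliced reads were tested with edgeR, TMM and its expression filter. The 681 introns listed under more than 1 gene were left out of gene sums. A read that spans an intron counts at both junctions, which overstates depth. DESeq2 1.42.0, limma 3.58.1, single junctions, other scalings, filters, a replicate block and each library left out were alternatives. Wilson intervals (95%) and the permutation test came from scipy 1.17.1.

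All 10 genes are named, with each called intron or, where none was called, the intron with the largest change in efficiency (50 or more reads in every library). Each list gene called is named, and long-read transcripts past 2-fold or most abundant in their gene. The members and lists were chosen with earlier results of these data known.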

Additional observations from a re-analysis of the deposited data

Results flagged for a closer look

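Intron 2 of Cdk16-202 (375 nt) stood outside the comparisons because control replicate 1 did not list it; each listed junction held 10 reads or more. Its splicing efficiency was 0.951 in control replicate 2 and 0.879 and 0.867 in the knockdown libraries, with a mean of 0.873. Both knockdown libraries thus lay under the only control value. Its 5′ junction held 257 split reads in control replicate 2 and 304 and 246 in the knockdown. Its 3′ junction held only 13 split reads in control replicate 2 and 16 and 15 in the knockdown. Most split reads at the 5′ junction thus joined another 3′ junction. The efficiency describes mainly the 5′ junction and not removal of this intron. No test was made.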

How the results depend on the processing

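The number of kinase introns called was 3, and it was 0 from the 5′ junction alone (232 of 50021 over all introns), 1 with DESeq2 (285 of 63309), 0 with limma (0 over all introns, 9 kinase introns at an unadjusted p under 0.05) and 0 (without control replicate 1) to 4 with each library left out, a further intron included. The number of genes called in efficiency was 3, and it was 0 with limma (0 of 9370 over all genes, 3 kinase genes at an unadjusted p under 0.05) and 0 (without control replicate 1) to 3 with each library left out. The number of genes called in spliced reads was 4, and it was 1 from the best covered intron (287 of 9468 over all genes) and 2 to 5 with each library left out, where 5 includes *Cdk4* as higher. The number of long-read transcripts past 2-fold was 3 of 17, 1 with a pseudocount of 5 reads, and 16 of 51 (8 lower, 8 higher) when at least 1 read was asked in place of 20. Single junctions hold fewer reads, and fewer libraries enter a left-out fit. Otherwise the cause was not tested.

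Values that were not called changed sign as follows. Log2 odds ratios of introns turned in *Cdk2* (−0.53, 5′ junction), *Cdk4* (−0.0246, separate scaling), *Cdk7* (−0.0661, 3′ junction) and *Cdk12* (−0.18, 3′ junction). Those of genes turned in *Cdk4* (−0.075, separate scaling), *Cdk1* (0.164, 3′ junction) and *Cdk2* (−0.34, 5′ junction, and −0.0823, separate scaling). Log2 fold changes turned in *Cdk12* (0.00422, total split reads), *Cdk2* (0.11, best covered intron) and *Cdk7* (−0.00177, best covered intron). With each library left out in turn, intron values of *Cdk2* ranged from −0.17 to 0.46 and of *Cdk13* from −0.13 to 2.15. Gene values ranged from −0.0298 to 0.13 (*Cdk4*), −0.12 to 0.0576 (*Cdk1*), −0.28 to 0.34 (*Cdk2*) and −0.47 to 0.23 (*Cdk13*). Fold changes ranged from −0.20 to 0.15 (*Cdk12*), −0.0121 to 0.0552 (*Cdk1*), −0.16 to 0.00993 (*Cdk2*), −0.0403 to 0.0548 (*Cdk13*) and −0.000395 to 0.0673 (*Cdk7*). Of the called genes and introns, none changed sign under an alternative that was run.

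The labels do not say that replicate numbers pair the samples, and deviations of same-numbered samples correlated by 0.0356 in spliced reads and 0.0284 in log odds over 7388 genes. A replicate block called 3 introns, 3 genes in efficiency and 4 in spliced reads, as without it. Limits are set by depth and by 2 libraries per group: *Cdk10* rests on under 200 spliced reads per library, and the long reads have no replicate. A further limit is that only 2 introns of *Cdk10* and 2 of *Cdk9* were listed. The *Cdk9* introns held 326 reads or more in every library. *Cdk4* had 3 introns listed, each with 1921 reads or more, where Cdk4-201 has 7. Why other introns were not listed was not tested.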
